A study of Mus musculus with 16 samples.

Results

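The genes described are the EGF receptor *Egfr*, 7 of its ligands (*Areg*, *Ereg*, *Hbegf*, *Tgfa*, *Egf*, *Btc* and *Epgn*), the receptor's inhibitor *Errfi1*, and the neuregulin *Nrg1*, which binds other receptors of the same family. They were picked by name, with earlier results of these data known, and make up 10 of the 55359 Ensembl genes in the count tables. They were measured by RNA-seq in whole dorsal skin of wild-type C57Bl/6N mice at 8 weeks of age, when the hair follicles rest (telogen). The 4 groups were males without UVB, males exposed to UVB, females without UVB and females exposed to UVB, with 4 mice in each. Mice of the UVB groups were exposed 3 times and sampled on day 5, 6 h after the final exposure, while the no-UVB groups had 0 exposures. The study compared the sexes, in work on melanocyte stem cells, to ask how the skin of each responds to UVB. Each sample is a mouse, so the p-values below measure the spread between mice.

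The EGF receptor is a tyrosine kinase on the surface of keratinocytes and other skin cells. Its ligands are made as membrane proteins, are cut free by metalloproteases of the ADAM family, and on binding make the receptor pair with itself or with *Erbb2*, which switches on the RAS and ERK kinases. In the epidermis and hair follicle this pathway is known for its part in keratinocyte growth, in wound repair and in the response to ultraviolet light. *Errfi1*, also called Mig6, binds the active kinase and shuts it off, and is itself made in response to receptor signalling. RNA levels of the ligands do not measure how much ligand was cut free, nor whether the receptor was active.

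Among the ligands, 4 are neighbours on chromosome 5 of GRCm39, the genome build of the files. *Epgn* (5:91175323-91183074, plus strand), *Ereg* (5:91222157-91241505, plus strand) and *Areg* (5:91287451-91296291, plus strand) follow each other at gaps of 39082 and 45945 bases, and *Btc* (5:91505120-91550883, minus strand) lies 208828 bases further on. *Egfr* is at 11:16702198-16868158 and *Errfi1* at 4:150938376-150955402, both on the plus strand. All are protein-coding, and the counts cover their annotated exons. The neighbours did not move together: after UVB *Epgn* rose, *Btc* fell, and *Ereg* and *Areg* did not pass the test in either sex.

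The start site windows of 4 of these genes are printed here. *Epgn* and *Btc* were chosen because they moved in opposite directions in both sexes. *Areg* and *Errfi1* were chosen because a window of each holds the cAMP response element marked below. Its presence there is thus a condition of the choice and no finding about genes picked by level. *Epgn*, *Areg* and *Errfi1* were also high in the same 2 control mice. Each window holds 250 bases before and 50 after a RefSeq start site, 5′ to 3′ on the gene's own strand, on GRCm38.p6, an earlier build than that of the files, so that its positions are not to be joined with those above. RefSeq windows were matched for 7 of the 10 genes, 9 windows in all, and none was matched for *Ereg*, *Hbegf* and *Nrg1*. Capitals mark the cAMP response element (CRE) TGACGTCA and the TATA box letters TATAAA.
*Epgn*, chr5:91027267-91027566, plus strand: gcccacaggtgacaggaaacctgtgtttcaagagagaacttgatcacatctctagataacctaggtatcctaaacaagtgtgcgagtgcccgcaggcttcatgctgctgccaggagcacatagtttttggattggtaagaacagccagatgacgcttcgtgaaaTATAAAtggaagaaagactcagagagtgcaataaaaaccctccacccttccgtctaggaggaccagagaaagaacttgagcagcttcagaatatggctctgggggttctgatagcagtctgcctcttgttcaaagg
*Btc*, chr5:91402945-91403244, minus strand: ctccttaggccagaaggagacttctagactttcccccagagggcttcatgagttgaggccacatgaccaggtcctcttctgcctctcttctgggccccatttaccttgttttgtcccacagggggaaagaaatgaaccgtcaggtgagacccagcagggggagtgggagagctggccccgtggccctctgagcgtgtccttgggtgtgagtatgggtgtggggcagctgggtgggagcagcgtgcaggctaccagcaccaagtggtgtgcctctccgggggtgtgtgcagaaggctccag
*Areg*, chr5:91139349-91139648, plus strand: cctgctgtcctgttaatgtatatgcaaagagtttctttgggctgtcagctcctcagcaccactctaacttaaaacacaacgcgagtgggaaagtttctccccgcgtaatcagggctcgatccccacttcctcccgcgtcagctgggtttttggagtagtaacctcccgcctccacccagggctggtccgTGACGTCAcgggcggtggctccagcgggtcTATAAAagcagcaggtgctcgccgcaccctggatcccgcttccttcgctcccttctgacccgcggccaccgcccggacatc
*Errfi1*, chr4:150854820-150855119, plus strand: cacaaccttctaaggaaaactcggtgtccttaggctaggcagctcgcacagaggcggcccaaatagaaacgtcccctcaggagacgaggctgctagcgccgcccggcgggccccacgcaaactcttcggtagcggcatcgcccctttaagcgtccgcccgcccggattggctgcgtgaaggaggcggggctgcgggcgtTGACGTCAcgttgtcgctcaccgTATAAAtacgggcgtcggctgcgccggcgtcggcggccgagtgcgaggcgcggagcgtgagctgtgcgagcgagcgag

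The palindrome TGACGTCA, which bZIP factors such as CREB bind, lay 61 bases before the start site of *Areg* and 51 bases before that of *Errfi1*. It is in 1.79% of the 32851 windows of the same length. The window of *Epgn* and those of *Egf* held none, although both genes were also highest in the control males that were high for *Areg* and *Errfi1*. *Hbegf*, high in them too, had no window. Searched on both strands, TATAAA or TTTATA was in 13.6% of windows. TATAAA lay 31 bases before the start site of *Areg*, 28 before that of *Errfi1* and 86 before that of *Epgn*. The AP-1 letters TGAGTCA or TGACTCA were in 5.2% of windows and in none of the 9 windows of these genes. The second *Errfi1* window and those of *Btc*, *Egf*, *Tgfa* and *Egfr* held none of the motifs. These matches describe letters only; binding was not measured.

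Each library held 16495776 to 33404831 reads on genes (median 21767339), and levels are given as CPM (the reads of a gene scaled to a common library size) after TMM scaling. Among these genes, *Nrg1* had the fewest reads, with 2 to 42 per mouse, and *Areg* had 30 to 157, while *Egfr* and *Errfi1* had at least 1055 in every mouse. The libraries of no-UVB male mice 1 and 2 stood apart from those of no-UVB male mice 3 and 4 in some early response genes, the transcripts that cells make within minutes of a stimulus. *Fos* was at 148 and 250 CPM in the first pair and at 35.8 and 27.2 in the second, and over the other 12 mice it ranged from 10.5 to 25.5. The main results that use these controls are also given without mice 1 and 2. That choice was made after the values were seen, and since *Errfi1* and *Areg* are high in the same mice, values without them are a description and add no support.

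In males, 3 of the 10 genes were higher after UVB (*Epgn*, *Hbegf* and *Nrg1*), 3 were lower (*Btc*, *Errfi1* and *Egfr*), and *Areg*, *Ereg*, *Tgfa* and *Egf* did not pass the threshold, an edgeR Benjamini-Hochberg adjusted p under 0.1 over all genes tested. Among all genes tested in males, 29% passed as higher and 30.5% as lower, so that counts of 3 and 3 of 10 were near the background. Past a log2 fold change of 1 as well, *Epgn* and *Nrg1* were higher and *Btc* and *Errfi1* lower, where 4.08% of all genes passed as higher and 3.31% as lower. In females, 9 of the genes had enough reads to be tested. *Epgn* and *Hbegf* were higher and *Btc* was lower, against 12.8% of all genes that passed as higher and 10.6% as lower. Past the fold, *Epgn* was higher and *Btc* lower in females, against 1.63% and 1.08% of all genes. Over these genes the median response was 0.04 (log2) for males and -0.01 for females, beside -0.02 and 0 for all genes tested. Without no-UVB male mice 1 and 2 the counts in males were 3 higher (*Epgn*, *Hbegf* and *Areg*) and 2 lower (*Btc* and *Errfi1*), where 24.2% of all genes passed as higher and 23.3% as lower.

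**Figure D1:**
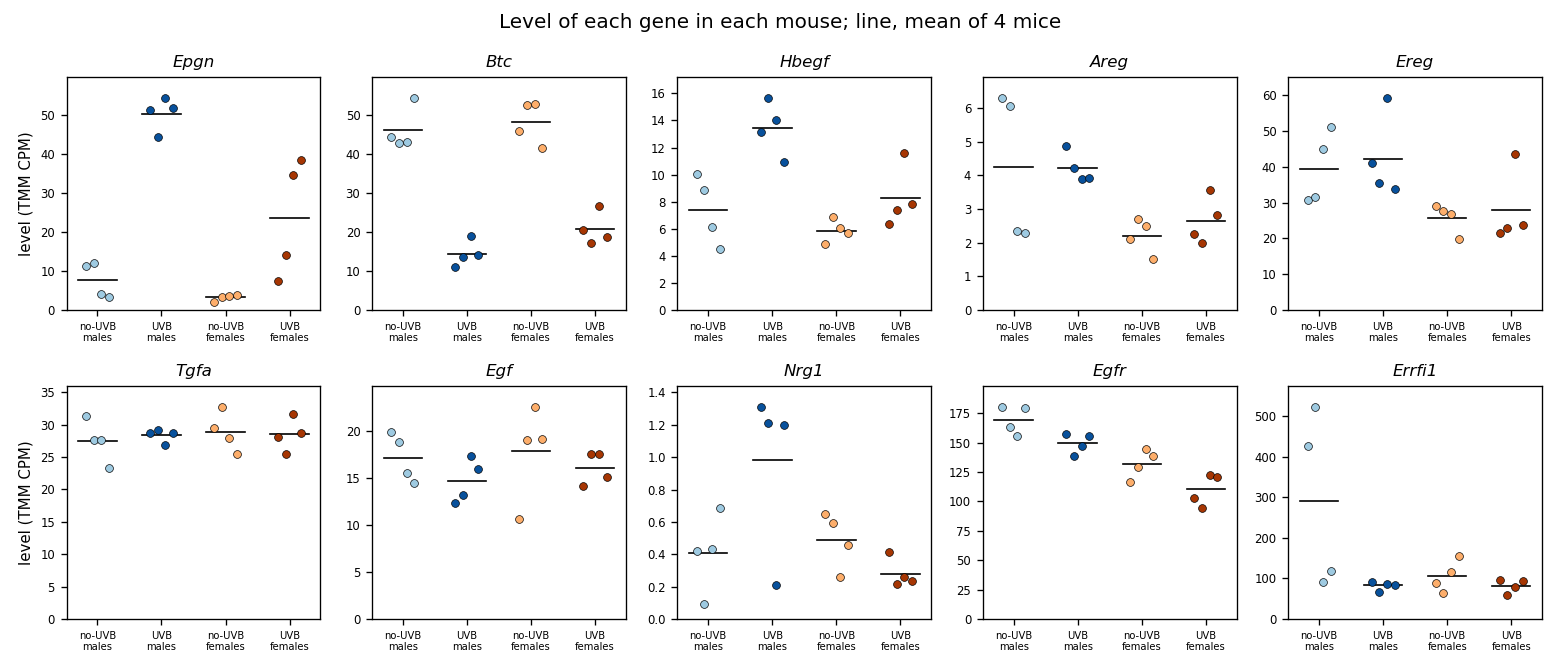
Level of each of the 10 genes in each of the 16 mice. The vertical axis is TMM CPM from 0, each point is a mouse, the horizontal line is the mean of 4 mice, and colours mark the groups. *Epgn* is higher in every UVB mouse than in any no-UVB mouse of the same sex, *Btc* is lower in every UVB mouse, and *Errfi1* stands at 427 and 521 CPM in 2 no-UVB males only.

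*Epgn* encodes epigen, a ligand that binds the EGF receptor weakly and is known for a long-lasting signal. It had the largest rise of these genes in both sexes. In males it was at 11.2, 11.97, 4.16 and 3.27 CPM without UVB and at 51.1, 44.2, 54.2 and 51.8 after UVB. All 4 UVB males were close together and far above the controls, among which mice 1 and 2 were the high ones. The mean went from 7.65 ± 4.57 to 50.3 ± 4.30 CPM (SD, n = 4), a log2 fold change of 2.73 with an SE of 0.386 (edgeR, Benjamini-Hochberg adjusted p = 0.00085). Female levels were 2.17, 3.33, 3.63 and 3.74 CPM without UVB and 7.36, 14.0, 34.5 and 38.4 after UVB. UVB females fell into a lower pair, mice 1 and 2, and a higher pair, mice 3 and 4, all above the controls. Females had a log2 fold change of 2.88 with an SE of 0.490 (edgeR adjusted p = 0.00479), and the responses of the sexes differed by -0.16, with a 95% interval of -1.60 to 1.28 (edgeR interaction, adjusted p = 0.917), or by 0.87 without no-UVB males 1 and 2 (edgeR adjusted p = 0.636). The call held in each of 8 fits per sex that left out a mouse, at log2 fold changes of 2.49 to 3.03 in males and 2.54 to 3.17 in females. Without no-UVB male mice 1 and 2 the male value was 3.77 (edgeR adjusted p = 4.14e-07).

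*Btc* encodes betacellulin, which binds the EGF receptor and also *Erbb4*. It was the ligand that fell in both sexes. Levels in males were 44.4, 42.8, 43.1 and 54.4 CPM without UVB and 11.1, 13.7, 18.9 and 14.1 after UVB. In females they were 46.0, 52.7, 52.8 and 41.7 without UVB and 20.6, 17.2, 26.8 and 18.9 after UVB. No UVB mouse reached the lowest control of its sex. Fitted responses were -1.66 (log2) in males, with an SE of 0.149 (edgeR adjusted p = 1.54e-05), and -1.21 in females, with an SE of 0.137 (edgeR adjusted p = 0.000463). The fall in males was larger by 0.47 on the log2 scale at an unadjusted p of 0.0461, which the correction over all genes did not pass (edgeR interaction, adjusted p = 0.23). Without no-UVB male mice 1 and 2 the male value was -1.73, and the fall passed in each of the 8 fits per sex that left out a mouse.

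*Hbegf* encodes heparin-binding EGF-like growth factor, which skin makes in wounds and which also binds *Erbb4*. In males it was at 10.02, 8.89, 6.15 and 4.53 CPM without UVB and at 13.1, 15.6, 14.0 and 11.0 after UVB. The groups did not overlap, although control mice 1 and 2 came near the lowest UVB mouse. Its log2 fold change in males was 0.87 with an SE of 0.220 (edgeR adjusted p = 0.00773), and 1.34 without those controls. The female controls were at 4.85, 6.90, 6.02 and 5.66 CPM and the UVB females at 6.33, 7.39, 11.6 and 7.81. Here the groups overlapped, and UVB mouse 3 was the highest. The female log2 fold change of 0.51 (SE 0.189) passed narrowly (edgeR adjusted p = 0.0961), and did not pass in 5 of the 8 fits that left out a mouse. The adjusted p was highest, 0.239, without UVB female mouse 3. The responses of the sexes differed by 0.35, with a 95% interval of -0.31 to 1.01 (edgeR interaction, adjusted p = 0.551).

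*Areg* encodes amphiregulin, a ligand that keratinocytes make for their own growth. In males it was at 6.29, 6.08, 2.34 and 2.29 CPM without UVB and at 4.89, 4.21, 3.91 and 3.91 after UVB. All UVB males lay between the high pair and the low pair of controls. Over all 8 males the response was 0.01 (log2), with a 95% interval of -0.73 to 0.76 (edgeR adjusted p = 0.976). Without control mice 1 and 2 it was 0.90 (edgeR adjusted p = 0.00359), so that the male value depended on those libraries. Among females, controls had 2.12, 2.70, 2.49 and 1.52 CPM and UVB mice 2.26, 1.98, 3.56 and 2.84. These groups overlapped, with a log2 fold change of 0.26 and a 95% interval of -0.25 to 0.78 (edgeR adjusted p = 0.481).

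*Ereg* encodes epiregulin, a ligand of the EGF receptor and *Erbb4*. In males it was at 30.7, 31.4, 44.9 and 51.0 CPM without UVB and at 41.0, 35.4, 59.1 and 33.8 after UVB. For females the values were 29.0, 27.6, 27.0 and 19.8 without UVB and 21.6, 22.9, 43.6 and 23.7 after UVB. UVB mouse 3 was the highest of its group in each sex, and the groups overlapped in both. Its response was 0.13 on the log2 scale in males (95% interval -0.40 to 0.65, edgeR adjusted p = 0.673) and 0.12 in females (95% interval -0.38 to 0.62, edgeR adjusted p = 0.763). Unlike *Areg* and *Epgn*, its neighbours, *Ereg* was not high in control males 1 and 2, which had the lowest levels of their group.

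*Tgfa* encodes transforming growth factor alpha, and was the steadiest of the ligands. Levels ran from 23.3 to 31.3 CPM in no-UVB males, 26.9 to 29.1 in UVB males, 25.4 to 32.7 in no-UVB females and 25.5 to 31.7 in UVB females. Its log2 fold change was 0.07 in males (95% interval -0.12 to 0.25) and -0.01 in females (95% interval -0.22 to 0.20), neither of which passed (edgeR adjusted p = 0.534 and 0.956). *Egf*, the ligand that gave the receptor its name, ran from 14.4 to 19.8 CPM in no-UVB males, 12.3 to 17.3 in UVB males, 10.6 to 22.5 in no-UVB females and 14.1 to 17.5 in UVB females. Its log2 fold change was -0.21 in males (95% interval -0.51 to 0.09) and -0.14 in females (95% interval -0.59 to 0.30), and the groups overlapped in both sexes (edgeR adjusted p = 0.213 and 0.676).

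**Figure D2:**
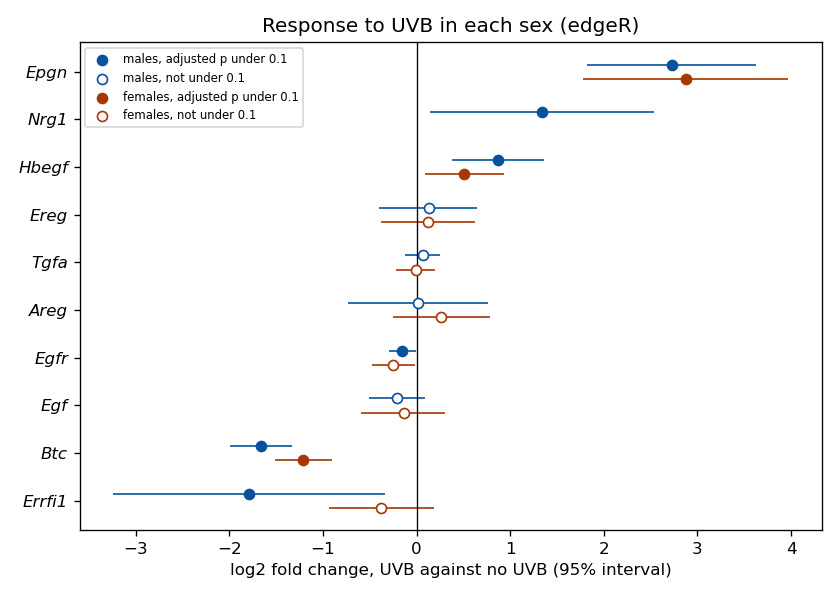
Log2 fold change of UVB against no UVB for each gene in males (blue) and females (brown), as fitted by edgeR in the 8 mice of each sex. Bars are 95% intervals, filled points passed an adjusted p of 0.1 and open points did not, and *Nrg1* was not tested in females. *Epgn* lies at 2.73 and 2.88 and *Btc* at -1.66 and -1.21, while the intervals of *Ereg*, *Tgfa*, *Areg* and *Egf* include 0 in both sexes.

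To set the ligands side by side, CPM was divided by the length of the merged annotated exons in kb. This scale depends on how much of that length skin transcripts use, which was not measured, so that it ranks genes roughly. In no-UVB males the ligand with the highest mean was *Btc* at 10.1 ± 1.21 CPM per kb, followed by *Ereg* at 8.87 ± 2.26, and their ranges overlapped. After UVB the highest was *Epgn* at 27.8 ± 2.38, above *Ereg* at 9.51 ± 2.61 with no overlap. In no-UVB females *Btc* stood at 10.6 ± 1.20, above *Ereg* at 5.81 ± 0.925 with no overlap, and after UVB *Epgn* at 13.1 ± 8.41 overlapped *Ereg* at 6.28 ± 2.36. *Tgfa*, at 4.02 to 4.22 CPM per kb in the group means, kept a middle place, and *Egf* and *Hbegf* were at 2.63 CPM per kb or less in all group means.

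As a share of the 7 ligands' summed level per kb, *Epgn* went from 12.3 ± 6.64% to 53.6 ± 2.78% in males and from 6.69 ± 1.75% to 36.1 ± 14.7% in females. *Btc* went from 30.4 ± 4.71% to 6.09 ± 0.985% in males and from 39.6 ± 0.504% to 14.8 ± 4.44% in females. The sum itself was 30.3 to 36.1 CPM per kb in no-UVB males and 47.2 to 58.7 in UVB males, with no overlap. In females it was 23.3 to 29.5 without UVB and 21.8 to 46.0 after UVB, with overlap. Shares add up to the whole, so a ligand's share can fall while its level stays, as with *Tgfa* in males at 11.98 ± 1.30% and 8.06 ± 0.974%. These shares are a description and were not tested.

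**Figure D3:**
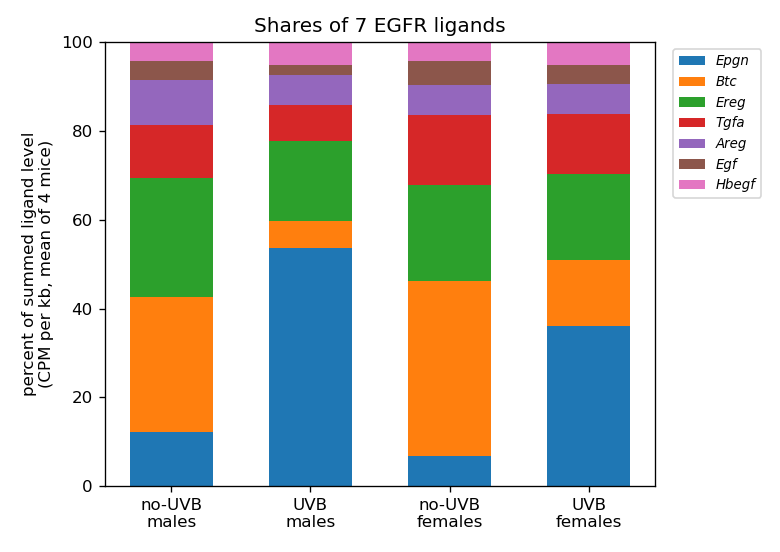
Mean share of each of 7 EGF receptor ligands in their summed level (CPM per kb of merged exons), in percent, for each group of 4 mice. *Epgn* takes 53.6% in UVB males and 36.1% in UVB females, against 12.3% and 6.69% in the no-UVB groups, and *Btc* takes 30.4% and 39.6% in the no-UVB males and females.

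*Egfr*, the receptor, was abundant in all groups and moved little. In males it was at 180, 163, 155 and 179 CPM without UVB and at 157, 139, 147 and 155 after UVB. In females it was at 116, 129, 145 and 139 without UVB and at 103, 94.3, 123 and 121 after UVB. The groups overlapped in both sexes. As log2 fold changes these are -0.16 in males, with an SE of 0.0646 (edgeR adjusted p = 0.061), and -0.25 in females, with an SE of 0.104 (edgeR adjusted p = 0.126). The male call was lost in 4 of 8 fits that left out a mouse, with the highest adjusted p, 0.164, without no-UVB male mouse 1, and without both no-UVB males 1 and 2 the value was -0.13 (edgeR adjusted p = 0.235). The female value passed under 3 other settings that kept all mice, at an adjusted p of 0.0462 to 0.0722, so that the receptor's call depended on the fit in each sex. The responses of the sexes differed by 0.08, with a 95% interval of -0.18 to 0.35 (edgeR interaction, adjusted p = 0.751).

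*Erbb2*, the partner receptor with no ligand of its own, rose by a log2 fold change of 0.23 in males (edgeR adjusted p = 0.0113), and *Erbb3*, a neuregulin receptor with little kinase activity, by 0.30 (edgeR adjusted p = 0.00859). In females their values were 0.04 and 0.05 and did not pass (edgeR adjusted p = 0.865 and 0.797), and the difference between the sexes did not pass for either (edgeR interaction, adjusted p = 0.517 and 0.387). *Erbb4* had too few reads to be tested.

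*Errfi1* differed by 5.68-fold among the control males. Without UVB the males stood at 427, 521, 91.7 and 118 CPM, and after UVB at 92.2, 67.3, 86.5 and 84.4. The lower of mice 1 and 2 was 3.60-fold above the higher of mice 3 and 4, and the last pair lay close to the UVB males. The log2 fold change was -1.79 with an SE of 0.607 (edgeR adjusted p = 0.045). It lost its call without UVB male mouse 2, no-UVB male mouse 1 or no-UVB male mouse 2, at an adjusted p of 0.103, 0.104 and 0.113, and without both control mice it was -0.31 (edgeR adjusted p = 0.0933). In females the levels were 88.1, 64.0, 117 and 156 CPM without UVB and 95.6, 59.4, 77.7 and 93.5 after UVB. They overlapped, with a log2 fold change of -0.38 and a 95% interval of -0.94 to 0.19 (edgeR adjusted p = 0.355). The difference between the sexes in response was -1.43 (edgeR interaction, adjusted p = 0.227) and 0.04 without both control mice.

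The same 2 control males were high in some early response genes and low in others. Of 19 early transcriptional targets of ERK, 11 were higher in both mice 1 and 2 than in mice 3 and 4, 5 were lower in both, and 3 overlapped. Among the lower ones, *Fosl1*, a partner in AP-1, was at 1.63, 1.61, 2.43 and 3.50 CPM in no-UVB males and *Etv4*, an ETS transcription factor, at 4.29, 5.16, 10.8 and 8.66. *Dusp1*, which encodes a phosphatase of MAP kinases, was at 262, 353, 94.5 and 95.4 CPM in no-UVB males and at 35.1 to 52.4 in UVB males. *Egr1*, a zinc finger transcription factor, was at 150, 181, 74.3 and 48.8 CPM in no-UVB males, and *Atf3*, a stress-induced transcription factor, at 80.9, 88.8, 14.5 and 19.4. *Areg*, *Hbegf*, *Epgn* and *Egf* were also highest among control males in mice 1 and 2, where for *Egf* the lower of mice 1 and 2 was 1.21-fold above the higher of mice 3 and 4. *Ereg* was lowest in mice 1 and 2, and the 4 control males differed by 1.16-fold at most for *Egfr*, 1.27-fold for *Btc* and 1.34-fold for *Tgfa*. Mice 1 and 2 were thus above mice 3 and 4, as for *Dusp1*, *Fos*, *Egr1* and *Atf3*, for some of the 10 genes and not for others, and what set the mice apart was not tested.

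**Figure D4:**
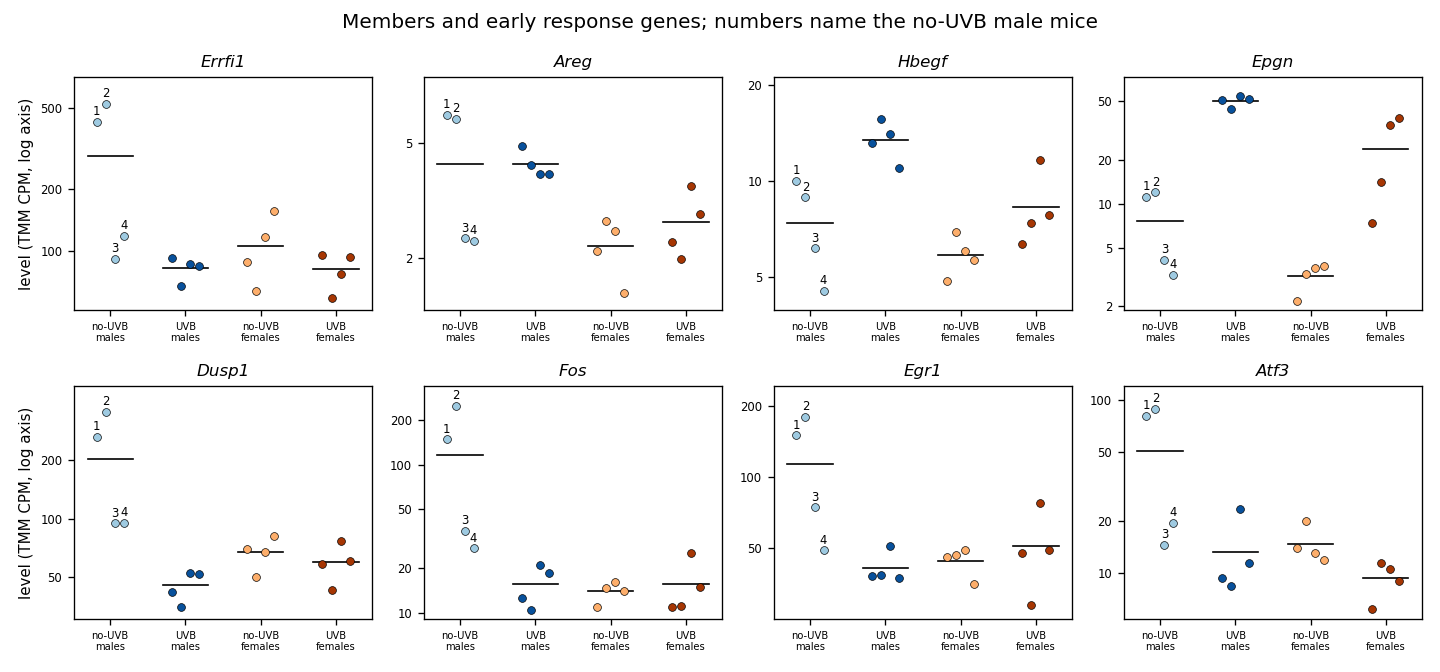
*Errfi1*, *Areg*, *Hbegf* and *Epgn* (top) and 4 early response genes, *Dusp1*, *Fos*, *Egr1* and *Atf3* (bottom) in each mouse, as TMM CPM on a log axis. Lines are means of 4 mice and numbers name the no-UVB male mice. Mice 1 and 2 lie above mice 3 and 4 in all 8 panels, from 427 and 521 against 91.7 and 118 CPM for *Errfi1* to 10.02 and 8.89 against 6.15 and 4.53 for *Hbegf*.

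*Nrg1* encodes neuregulin 1, a ligand of *Erbb3* and *Erbb4* that nerves and fibroblasts make. It was near the limit of detection, at 0.0245 ± 0.0146 CPM per kb in no-UVB males and 0.0589 ± 0.0310 in UVB males. In males it was at 0.419, 0.0921, 0.433 and 0.688 CPM without UVB and at 1.31, 1.21, 0.211 and 1.20 after UVB. These are 9, 2, 10 and 12 reads against 42, 19, 4 and 23, where 3 reads correspond to 0.143 CPM in no-UVB and 0.140 CPM in UVB males. The UVB mice were above every control but for mouse 3, which was below 3 of them. The log2 fold change of 1.34 (SE 0.543) passed (edgeR adjusted p = 0.0596), but not in 5 of the 8 fits that left out a mouse, nor without control mice 1 and 2, at 0.88 (edgeR adjusted p = 0.264). Female levels, 0.650, 0.595, 0.262 and 0.455 CPM without UVB and 0.412, 0.216, 0.257 and 0.233 after UVB, were too low for the filter. Fitted over all 16 mice, the female value was -0.81 and did not pass (edgeR adjusted p = 0.322). The difference between the sexes was 2.12 (edgeR interaction, adjusted p = 0.117).

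The test of the difference between the sexes in response passed for 0 of the 10 genes, where 2.75% of all genes tested were higher in males and 4.25% lower (edgeR, adjusted p under 0.1). At an unadjusted p under 0.05, 3 of the 10 were found, namely *Btc* (0.0461), *Errfi1* (0.0447) and *Nrg1* (0.0102), beside 3625 of the 17406 genes tested, and DESeq2 passed none of the 9 for which it gave an adjusted p. A response that passed in males and not in females, as for *Egfr* and *Errfi1*, was thus not shown to differ between them.

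Levels of some of the genes differed between the sexes. Without UVB, males had more *Egfr* than females, by a log2 difference of 0.36 (edgeR adjusted p = 0.0219), more *Areg*, by 0.94 (edgeR adjusted p = 0.078), and more *Errfi1*, by 1.45 (edgeR adjusted p = 0.075). None was lower, and among all genes 7.21% passed as higher in males and 4.58% as lower. Without control males 1 and 2, these differences were 0.34 for *Egfr* (edgeR adjusted p = 0.138), 0.06 for *Areg* and -0.01 for *Errfi1*, and none of the 10 genes passed. For *Egfr*, the level in no-UVB males, 169 ± 12.1 CPM, was above that in no-UVB females, 132 ± 12.4 CPM, with no overlap between single mice.

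After UVB, males had more *Egfr*, by a log2 difference of 0.44 (edgeR adjusted p = 0.00454), more *Hbegf*, by 0.69 (edgeR adjusted p = 0.0372), more *Epgn*, by 1.09 (edgeR adjusted p = 0.0962), and more *Nrg1*, by 1.84 (edgeR adjusted p = 0.0209). *Btc* was lower in males, by -0.54 (edgeR adjusted p = 0.0293). That is 4 higher and 1 lower of 10, where 12.8% of all genes passed as higher and 12.5% as lower. *Egfr* was higher in all 4 UVB males, at 139 CPM or more, than in any UVB female, at 123 or less. The call for *Egfr*, *Btc* and *Nrg1* held in all 16 fits that left out a mouse, that for *Hbegf* in 15, and that for *Epgn* in 6. *Nrg1* had only 42, 19, 4 and 23 reads in UVB males and 8, 6, 6 and 5 in UVB females. Its UVB male mouse 3, at 0.211 CPM, was below the lowest UVB female, at 0.216. For *Hbegf* the call was lost without UVB female mouse 1 (edgeR adjusted p = 0.118). *Areg* and *Ereg* were higher in UVB males by 0.68 and 0.60 on the log2 scale and did not pass (edgeR adjusted p = 0.139 and 0.106). The comparisons within a sex and between the sexes share their mice and are not independent.

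The other genes of the pathway were taken from lists by role. These lists, and those of cell types below, were made with earlier results of these data known. Medians are set beside the -0.02 of all genes in males and 0 in females. Counts are to be read against the 29% of all genes that passed as higher and 30.5% as lower in males, 12.8% and 10.6% in females, and 24.2% and 23.3% in males without control mice 1 and 2. Of 10 proteases that cut ligands free and their adaptors, 5 rose and 3 fell in males (median log2 fold change 0.03) and 0 rose and 2 fell in females (median -0.05). Without control males 1 and 2 the male counts were 4 and 2. *Adam8*, a metalloprotease, rose by 0.54 in males (edgeR adjusted p = 0.000305), and *Frmd8* and *Rhbdf2*, which bring ADAM17 to the surface, by 0.40 and 0.34 (edgeR adjusted p = 0.00103 and 0.00308). *Adam19*, another metalloprotease, had -0.36 in males and -0.29 in females and passed in both (edgeR adjusted p = 0.00288 and 0.0813). All changes on that list stayed under a log2 fold change of 1. Of 2 other neuregulins tested, *Nrg2* rose in both sexes, by 0.47 in males (edgeR adjusted p = 0.0536) and 0.56 in females (edgeR adjusted p = 0.0811), and *Nrg3* was not tested. Without control males 1 and 2 *Nrg2* was at 0.31 in males and did not pass (edgeR adjusted p = 0.187).

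Of 20 adaptors and kinases below the receptor, 7 rose and 4 fell in males (median 0.06), and 2 rose and 1 fell in females (median 0). Without control males 1 and 2, 7 rose and 2 fell in males. *Nras*, a small GTPase, rose by 0.57 in males (edgeR adjusted p = 8.23e-06) and 0.20 in females (edgeR adjusted p = 0.0856), and the responses differed (edgeR interaction, adjusted p = 0.0355). *Stat3*, a transcription factor that the receptor and cytokine receptors switch on, rose by 0.48 in males (edgeR adjusted p = 5.19e-05), had 0.04 in females, and also differed between them (edgeR interaction, adjusted p = 0.0228). *Braf*, a kinase of the ERK cascade, fell in both, with values of -0.30 and -0.27 (edgeR adjusted p = 0.00717 and 0.0147). *Pik3r1*, the regulatory subunit of PI3 kinase, had -0.43 in males (edgeR adjusted p = 0.0386) and -0.10 without control males 1 and 2 (edgeR adjusted p = 0.405).

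Of 25 genes of receptor turnover and feedback inhibition, 8 rose and 8 fell in males (median 0.04), and 1 rose and 4 fell in females (median -0.11). In males without control mice 1 and 2, 7 rose and 7 fell. *Sh3gl2*, an endophilin that helps take the receptor into the cell, fell in both sexes, at -0.99 and -0.98 (edgeR adjusted p = 0.000387 and 0.0192). *Cblc*, a ubiquitin ligase of the receptor, rose by 0.82 in males (edgeR adjusted p = 8.99e-05) and had 0.33 in females (edgeR adjusted p = 0.223). *Socs3*, a cytokine feedback inhibitor, had -0.79 and -0.48 (edgeR adjusted p = 0.0463 and 0.0271), the first of which was -0.21 and did not pass without control males 1 and 2 (edgeR adjusted p = 0.238). *Dusp1* had -2.13 in males (edgeR adjusted p = 0.0105) and -1.03 without those mice (edgeR adjusted p = 0.000771).

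Of 19 early transcriptional targets of ERK, 8 rose and 4 fell in males (median 0.05), and 5 rose and 1 fell in females (median 0.15). Without control males 1 and 2 the male counts were 9 and 2. The largest rises were those of *Etv4* and *Fosl1*. *Etv4* was at 4.29 to 10.8 CPM in no-UVB males and 29.8 to 40.3 in UVB males, a log2 fold change of 2.35 (edgeR adjusted p = 0.000128). Females had 5.76 to 9.47 without UVB, and 19.9, 21.6, 38.4 and 40.2 after UVB, a log2 fold change of 2.07 (edgeR adjusted p = 0.001). UVB female mice 1 and 2, the lower pair for *Epgn*, were also the lower pair for *Etv4*. *Fosl1* rose by 1.73 in males (edgeR adjusted p = 0.000164) and 1.28 in females (edgeR adjusted p = 0.0272), and UVB females had 1.85, 2.31, 4.89 and 4.32 CPM, with the same pair low. Within the UVB females, that pair also had the higher shares of unmapped reads, at 15.1 and 16.4% against 12 and 13.6%, and of reads outside genes, at 10.5 and 12.4% against 9.3 and 9.72%, and the part of these in the values was not tested. *Fos* and *Atf3* had -2.87 and -1.94 in males (edgeR adjusted p = 0.0228 and 0.0625), and -0.99 and -0.34 without control males 1 and 2, where *Fos* still passed (edgeR adjusted p = 0.031) and *Atf3* did not (edgeR adjusted p = 0.61).

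**Figure D5:**
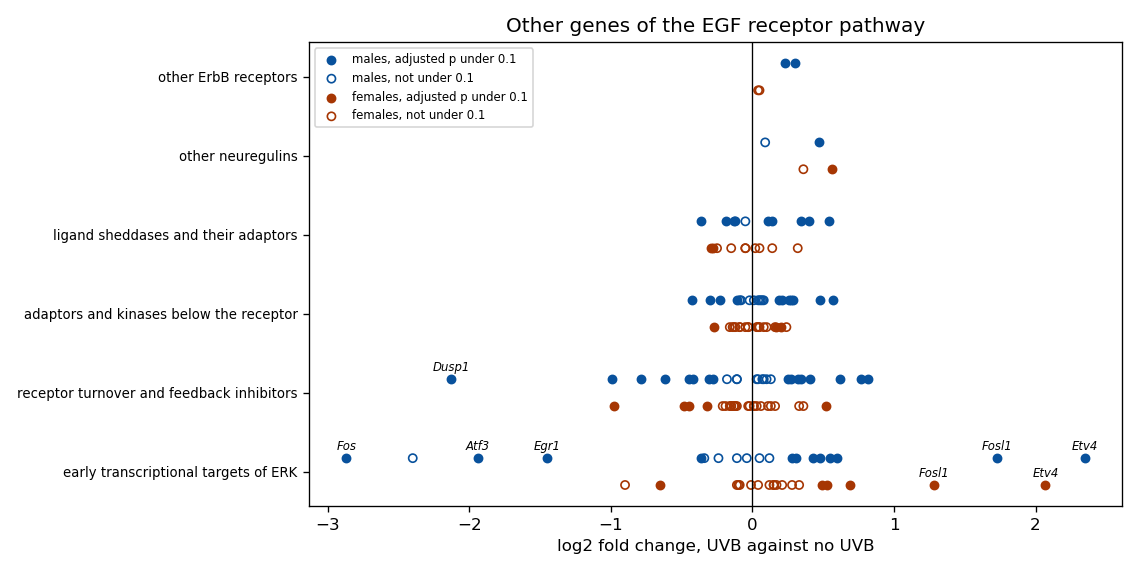
Log2 fold change of UVB against no UVB for the other genes of the pathway, by role, in males (blue) and females (brown). Each point is a gene, filled where its edgeR adjusted p was under 0.1, and those past a log2 fold change of 1 are named. Most points lie between -1 and 1; *Etv4* at 2.35 and 2.07 and *Fosl1* at 1.73 and 1.28 stand out above, and *Fos* at -2.87 and *Dusp1* at -2.13 stand out below in males.

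In whole skin, fewer cells of a type and less RNA per cell cannot be told apart, and the RNA levels of cell type markers moved with treatment and sex. The 9 keratinocyte markers, all detected, summed to 10610 to 15730 CPM in no-UVB males and 23370 to 32770 in UVB males, and to 9099 to 13470 and 14100 to 17700 in females. *Krt1*, a keratin of differentiating cells, rose by 3.13 (log2) in males and 1.99 in females, while *Krt15*, a keratin of basal and bulge cells, had -1.25 and -1.11 (edgeR adjusted p = 3.03e-05, 0.0011, 2.56e-05 and 0.012). *Krt10*, the most abundant marker, was at 4366 ± 709 CPM in no-UVB males and 10130 ± 1118 in UVB males. In males 5 of the 9 rose and 1 fell, beside 29% and 30.5% of all genes, while *Krt5*, *Col17a1* and *Trp63* had 0.29, -0.11 and 0.07 (log2) and did not pass. The 7 fibroblast markers summed to 79630 to 86880 CPM in no-UVB males and 28750 to 39690 in UVB males, against 19750 to 21020 and 12660 to 22540 in females, and 6 of 7 fell in males. Most of that sum was *Col1a1*, *Col1a2* and *Col3a1*, at means of 29610, 29270 and 20000 CPM in no-UVB males and 5069, 5733 and 5672 in no-UVB females. *Pdgfra*, *Dcn*, *Lum* and *Dpt* were at 115, 2926, 716 and 672 against 140, 2570, 425 and 555. Of the 7, 4 passed as higher in no-UVB males than in no-UVB females and 0 as lower, beside 7.21% and 4.58% of all genes. Schwann cell and melanocyte markers summed to 387.8 to 544.2 CPM in no-UVB males and 293.8 to 373.3 in UVB males, and 7 skeletal muscle markers to 15370 to 20430 and 9364 to 11890. In females both ranges overlapped between treatments. The sums of 9 neutrophil markers, 9 macrophage markers, 6 adipocyte markers and 7 sebaceous gland markers overlapped between treatments in both sexes. Of the neutrophil markers, 5 rose and 2 fell among 8 tested in males, and 2 rose and 2 fell among 7 in females. *S100a9* rose by 4.55 in males and 2.29 in females (edgeR adjusted p = 0.000385 and 0.00033). *Il1r2*, the most abundant of them at a mean of 105 CPM in no-UVB males, had -0.79 in males and -0.40 in females and passed in both (edgeR adjusted p = 0.00212 and 0.0953), as did *Mmp9* at -1.57 and -1.06 (edgeR adjusted p = 3.81e-06 and 0.0017), so that the sum combined markers that moved in opposite directions. In males, 5 of 9 macrophage markers and 3 of 6 adipocyte markers fell and 0 of either rose, and 4 of 7 sebaceous gland markers rose and 0 fell, beside the 29% of all genes that passed as higher and 30.5% as lower. Without control males 1 and 2, 4 rather than 6 fibroblast markers and 1 rather than 3 adipocyte markers fell, while the macrophage and sebaceous gland counts were again 5 lower and 4 higher, beside 24.2% of all genes higher and 23.3% lower. In females the counts were 1 macrophage marker lower, 0 adipocyte markers and 3 sebaceous gland markers higher, beside 12.8% of all genes higher and 10.6% lower. *Mmp9*, *Ly6g*, *Krt5*, *Col17a1*, *Trp63*, *Pdgfra*, *Dcn* and *Lum* are named after their values were seen, and *Ly6g* was at 0 in every mouse of 3 of the groups. *Nrg1* was higher in UVB males while the fibroblast and the Schwann cell and melanocyte sums were lower, and the part of cell makeup in the values of *Epgn*, *Btc* and the other genes was not tested.

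For each gene that passed in a sex, the protein-coding genes with the most alike levels over the 16 mice were looked up among 14011 genes, as a description in which the mice share groups and scaling. *Epgn* was most like *Slc7a5* (Pearson r = 0.966), an amino acid transporter, then *Gtf3c1* and *Cstf2*. Within groups, after the group means were removed, r with *Slc7a5* was 0.915. *Btc* was most like *Csmd1* (r = 0.973), then *Robo1* and *Ccdc3*, with 0.655 within groups for *Csmd1*. *Errfi1* was most like *Dusp1* (r = 0.934), then *Gadd45g* and *Arl4d*, at 0.926 to 0.937 within groups. *Hbegf* was most like *Dctn4* (r = 0.925), then *Hif1a* and *Nus1*, and *Egfr* was most like *Appbp2* (r = 0.885), then *Slc30a5* and *Gria3*. For *Nrg1* the highest was *Lmtk3* (r = 0.826), then *Srms* and *Arpc4*, at counts too low to read much from.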

How the data were processed

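Polyadenylated RNA of whole dorsal skin from 16 C57Bl/6N mice (4 in each of 4 groups) was made into strand-specific libraries by the authors and aligned with STAR to GRCm39. Per mouse, the authors deposited a table of STAR counts, whole numbers that were not normalized. Of its 3 count columns, the one for the directional kit's strand was used, since the other strand held 3.63 to 4.23% of gene reads. Opposite-strand genes that overlap the 10 genes had at most 37 counts. Reads on several places were listed as 0, so that sharing with near-identical genes is not shown. Reads outside genes made up 8.3 to 13.69% of a library. Names and exon lengths came from GENCODE M39 (54749 of 55359 identifiers), and a second *Nrg1* identifier had 0 counts.

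The counts were fitted with edgeR 4.0.16 in R 4.3.3 (filterByExpr, TMM, robust quasi-likelihood test), after a test on simulated data. Within a sex, 4 UVB and 4 no-UVB mice were compared. Contrasts between the sexes, with the interaction, came from a fit of all 16 mice, and no covariate was used. A gene passed at a Benjamini-Hochberg adjusted p under 0.1 over all genes tested, and past the fold at a log2 fold change over 1. The study's methods use the same numeric thresholds in DESeq2, with fold changes shrunken by apeglm, whereas those here are unshrunken. DESeq2 1.42.0 was run as an alternative. Levels between genes are CPM per kb of merged exons, given as mean ± SD. No library pair of a group agreed within sampling noise (chi-square per degree of freedom 9.5 to 98.3), and none was left out. Figures were drawn with matplotlib 3.10.9 under Python 3.11.15, and tables handled with pandas 2.3.3.

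The 10 genes and all lists were chosen with earlier results of these data known. From each list, up to 4 genes with the largest change past the threshold and a mean of at least 1 CPM are named, and for each of the 10 genes that passed, the 3 most alike genes by Pearson r of log2 CPM (prior count 2). The values per mouse of *Egr1*, *Fosb*, *Etv4* and *Fosl1*, the counts of early targets within the no-UVB males, and the exclusion of no-UVB male mice 1 and 2, were chosen after the data were seen. Alternatives were unstranded counts, 2 other scalings (DESeq2's size factors and the upper quartile), DESeq2 in place of edgeR, looser and stricter filters (1 count in any mouse, or 10 counts in each), a replicate block, 1 fit of all 16 mice for every contrast, and dropping each mouse in turn.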

Additional observations from a re-analysis of the deposited data

Results flagged for a closer look

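In 4 of the 40 groups of 4 mice checked for the 10 genes, a mouse stood apart from the other 3 by a gap that took more of the group's range than Dixon's 95% critical value allows. Chance alone gives about 1 in 20. *Ereg* was at 43.6 CPM in UVB female mouse 3, where the lowest of the group was 21.6, and the gap took 0.903 of the range. *Tgfa* was at 26.9 CPM in UVB male mouse 3, where the highest was 29.1, a small difference in a narrow group (0.834 of the range). *Btc* was at 54.4 CPM in no-UVB male mouse 4, where the lowest was 42.8 (0.866 of the range), which leaves all UVB males below every control. *Nrg1* was at 0.211 CPM in UVB male mouse 3, where the highest was 1.31 (0.901 of the range), and its log2 fold change passed without this mouse and in 2 other fits of the 8 that left out a mouse.

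In 3 of 28 groups of the early response genes, *Etv4* and *Fosl1*, a mouse was flagged in the same way. *Egr1* was at 50.8 CPM in UVB male mouse 3. *Fosb* was at 47.1 CPM in UVB male mouse 3 and at 9.47 CPM in UVB female mouse 3. None of the 10 genes passed the test of a different response in males and females.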

How the results depend on the processing

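Of 397 values of the 10 genes recomputed under alternatives other than leaving out a single mouse, 348 kept their direction and their side of the threshold, 14 came to pass, 17 no longer passed and 18 changed sign, 9 of these without no-UVB male mice 1 and 2. Of 80 group levels, 79 stayed within 1 SD. *Epgn* and *Btc* kept direction and call in each sex under all settings run. In females, 1 gene rather than 2 was higher with DESeq2's size factors, upper quartile scaling or all 16 mice in a single fit, where *Hbegf* had an adjusted p of 0.102, 0.111 and 0.123. There, 2 genes rather than 1 were lower, *Egfr* being added, with upper quartile scaling, the replicate block and the single fit. The interaction passed for 1218 genes of all tested, 2040 with DESeq2's Wald test, 724 with every gene of at least 1 count and 178 without no-UVB males 1 and 2. Without UVB, 3 genes were higher in males, 1 with every gene of at least 1 count, and 0 without those mice, where all genes passing went from 2052 to 837. The cause was not tested, except that fewer samples enter the last setting.

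Signs changed as follows. The interaction of *Ereg* was 0.02 with DESeq2's size factors, the Wald test and the block. After UVB, *Tgfa* in males against females was 0.01 with size factors and 0.02 with the Wald test, and *Errfi1* was -0.02 with upper quartile scaling. The male response of *Areg* was -0.06 with upper quartile scaling and -0.01 in the single fit, and that of *Tgfa* -0.01 with upper quartile scaling. Without no-UVB males 1 and 2, the male response of *Ereg* was -0.15, the interaction was 0.61 for *Areg*, 0.11 for *Egf*, 0.87 for *Epgn* and 0.04 for *Errfi1*, and males against females without UVB gave -0.12 for *Hbegf*, 0.01 for *Btc*, -0.01 for *Errfi1* and 0.19 for *Nrg1*.

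With each mouse left out in turn, males had 2 to 3 genes higher and 1 to 3 lower (all genes passing 8927 to 9748), and females 1 to 2 higher and 1 to 3 lower (2710 to 3803). The interaction passed for 0 to 1 higher and 0 to 1 lower (461 to 1761, lowest without UVB male mouse 1). Males against females had 1 to 4 genes higher without UVB (1192 to 2264, lowest without no-UVB male mouse 2), and 2 to 6 higher and 1 lower after UVB (2791 to 4691, lowest without UVB female mouse 1). Signs changed within these ranges for *Areg* (-0.18 to 0.26), *Ereg* (-0.08 to 0.27) and *Tgfa* (0 to 0.14) in males, and *Ereg* (-0.18 to 0.22) and *Tgfa* (-0.07 to 0.05) in females. They also changed for the interaction of *Ereg* (-0.21 to 0.31), *Tgfa* (-0.01 to 0.14), *Egf* (-0.21 to 0.10) and *Epgn* (-0.44 to 0.19). Between the sexes they changed for *Tgfa* (-0.15 to 0), *Egf* (-0.24 to 0.07) and *Nrg1* (-0.60 to 0.06) without UVB, and for *Tgfa* (-0.06 to 0.05) and *Errfi1* (-0.10 to 0.11) after UVB.

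Same-numbered UVB and no-UVB mice did not deviate together, with correlations of -0.073 to 0.022 in males and -0.115 to 0.217 in females, so the numbers were not taken as pairs. With the replicate block, *Errfi1* in males was -1.41 (edgeR adjusted p = 0.17). Depth limited *Nrg1* most, with 2 reads in 1 mouse.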
